A study of Mus musculus with 2 samples.

Results

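The clustered histone genes are the protein-coding genes whose names begin with Hist1h, Hist2h, Hist3h or Hist4h. They were picked by that name alone, and 67 of the 22028 protein-coding genes in the annotation carried it. By class they were 6 linker H1 genes, 18 H2A, 18 H2B, 12 H3 and 13 H4 genes. In the mm10 build 54 of them lie on chromosome 13, 10 on chromosome 3, 2 on chromosome 11 and 1 on chromosome 6. They were measured in total RNA of the adrenal gland of adult male mice aged 8 to 10 months, supplied by The Jackson Laboratory, from a cross of the 5xFAD transgenic line with the wild-derived strain CAST. The 5xFAD line is a model of amyloid deposition whose transgenes are driven by a neuronal promoter. There was 1 group of 2 libraries, each made from 300 ng of RNA with ERCC spike-ins added. Both libraries carry the same genotype label, and nothing below compares genotypes, tissues or treatments. The labels give 2 biosamples and a shared donor entry, so whether the spread between the libraries is that between animals is not known, and with 2 libraries no test was made.

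Core histones H2A, H2B, H3 and H4 form the protein spool on which DNA is wound, and linker H1 binds where DNA enters and leaves it. The clustered genes are the replication-dependent set: they are transcribed mainly in S phase, most lack introns, and their mRNAs usually end in a conserved stem-loop in place of a poly(A) tail. The stem-loop is bound by the protein SLBP, which acts in processing, translation and decay of these mRNAs. A library made from total RNA can hold mRNAs without a tail, whereas selection on poly(A) tends to lose them.

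The stem-loop was searched in the GENCODE M21 transcripts (mm10) as the letters GGNNCTTNTNAGNNCC, in which N is any base, on the transcript's own strand. It stood after the stop codon in 46 of the 67 histone models (68.7%, taking 1 model a gene), 21 to 58 bases past the stop codon with a median of 31. Of 58725 protein-coding transcripts of other genes, 0.274% held those letters anywhere. There were 8 forms, and in each of them the 6 bases of one arm paired with the 6 of the other. All but the form of Hist1h3g, an H3 gene, are shown with 5 bases on either side, the stem-loop in capitals. Hist1h1c and Hist2h2aa2 share a form.
Hist1h1c: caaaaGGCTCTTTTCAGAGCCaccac
Hist2h2aa2: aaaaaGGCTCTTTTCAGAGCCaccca
Hist1h3c: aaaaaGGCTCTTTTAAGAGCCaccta
Hist2h2ac: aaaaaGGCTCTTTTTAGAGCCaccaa
Hist1h4h: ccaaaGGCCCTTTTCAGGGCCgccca
Hist1h4b: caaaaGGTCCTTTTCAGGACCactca
Hist1h4i: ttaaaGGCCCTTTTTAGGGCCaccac
Hist1h4a: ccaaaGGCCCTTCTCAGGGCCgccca

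The form of Hist1h1c and Hist2h2aa2 was found in 26 models, of which 3 were H1, 10 H2A, 8 H2B and 5 H3. No H4 model had it. The form of Hist1h4h was found in 7 models, all of them H4, and the 12 H4 models with a stem-loop used 4 forms that no other class shared. The form of Hist1h3c was in 6 models, among H1, H2B and H3.

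How far each model reaches past the stop codon differed more than the stem-loop did. In 17 models the annotation stopped at the stop codon or at most 2 bases after it, so these models held no stem-loop. Of these genes Hist1h2bq and Hist1h2br also have longer transcripts, which are left out here because 1 model a gene was taken. In 23 models it ended within 100 bases of the stem-loop, and in 23 it ran over 100 bases further. Of those 23 long models 16 held the letters of a poly(A) signal, AATAAA or ATTAAA, after the stem-loop, as against 1 of the 23 short ones. The median bases after the stop codon were 799 and 81, so the long models have more room for such letters. These counts therefore do not compare like lengths, and a match does not show a used signal. Hist1h2bc and Hist2h2be had long models with such letters and no stem-loop, and Hist1h1a and Hist2h3b had short tails with neither. The Hist1h2bc model is spliced from 2 exons, and bases removed by splicing were not searched. TPM, a length-corrected share of all transcripts in a library, divides counts by the effective length of the model, so a level depends on where the model was drawn to end.

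**Figure D1:**
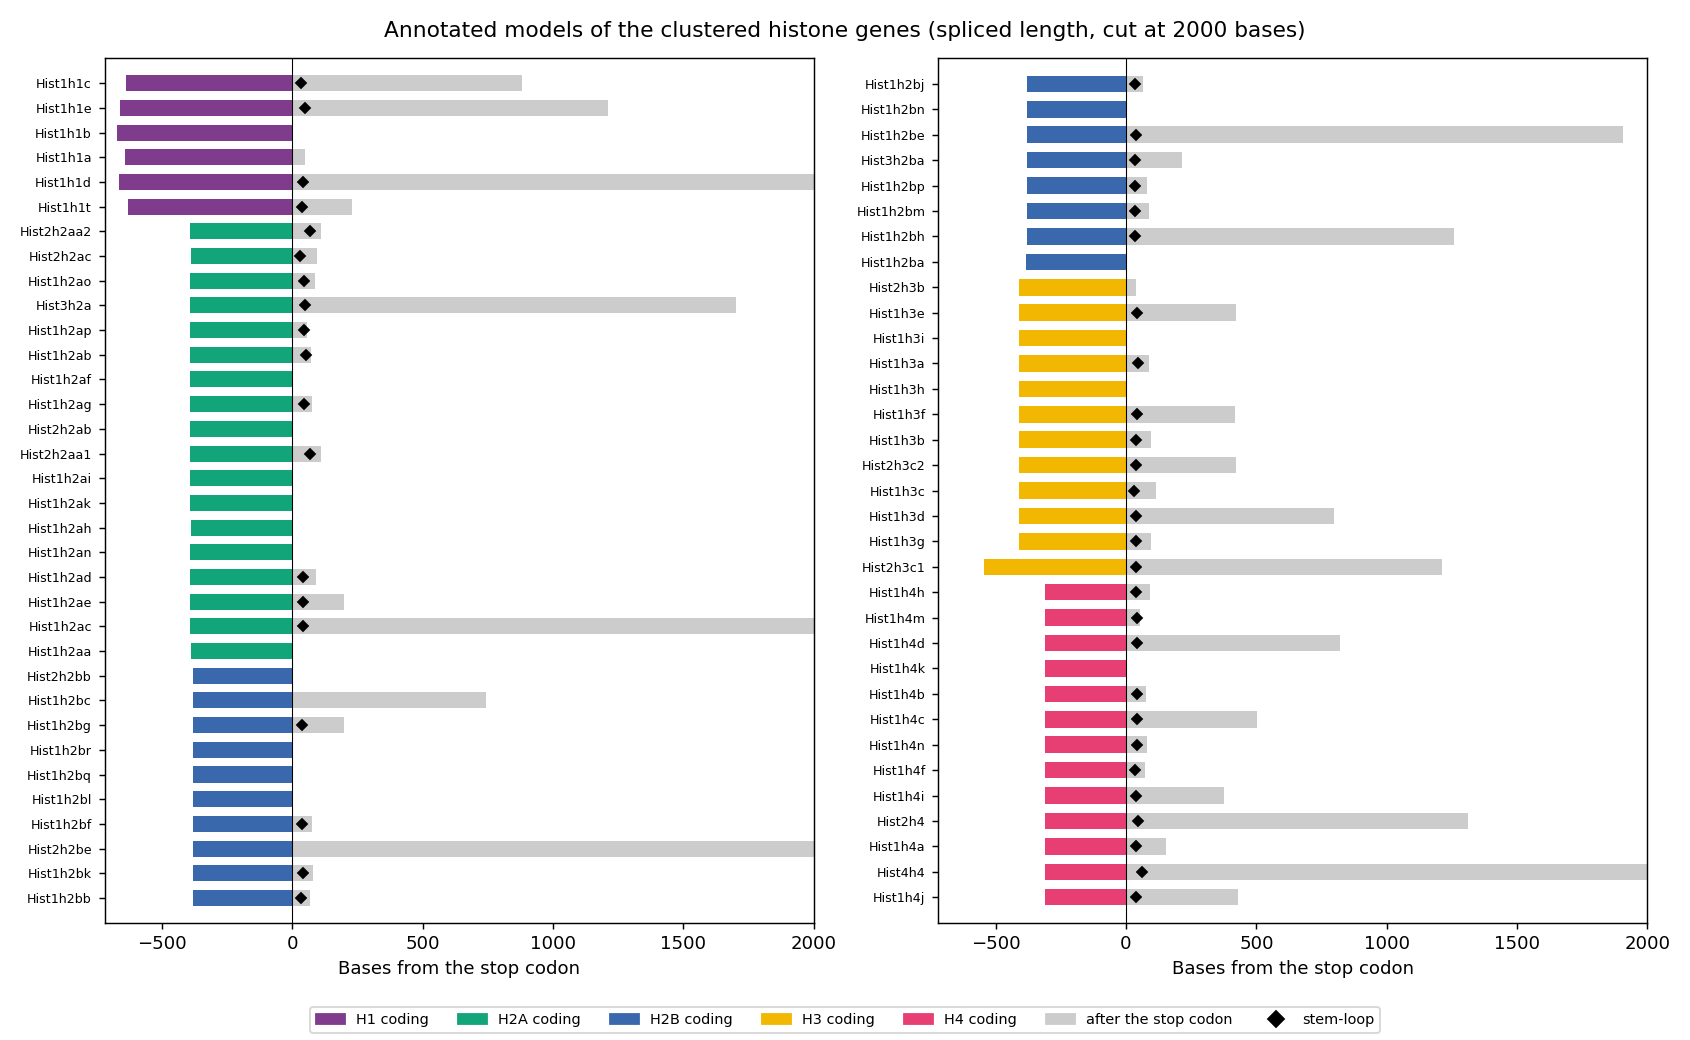
Spliced model of each of the 67 genes, with the horizontal axis in bases from the stop codon, the coding part in colour to the left, the bases after the stop codon in grey, and the stem-loop as a diamond. Bases before the start codon are not drawn and 4 models longer than 2000 bases after the stop codon are cut; the diamonds line up 21 to 58 bases from the stop codon while the grey bars end anywhere from there to beyond the axis.

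Replicate 1 held 29204658 counts over annotated genes and replicate 2 held 26322473. Of these the histone genes held 0.0708% and 0.0632%. The tissue label was checked on defining markers: Star and Cyp11a1 of the steroid-making cortex were at 5583 and 2869 TPM in replicate 1 and at 5825 and 2747 in replicate 2, and Th and Dbh of the medulla were at 209.6 and 174 and at 216 and 198 TPM. Of 5 markers of dividing cells, Mki67, Top2a, Cdk1, Ccna2 and Ccnb1, none reached 1 TPM in both libraries, and their summed level was 5.55 and 4.32 TPM. Of the listed lymphocyte markers given here Ptprc, which is not particular to lymphocytes, did, at 5.37 and 4.97 TPM. Cd3e was at 0.58 and 0.66 TPM and Cd79a at 0.44 and 0.43. Bulk RNA cannot tell fewer cells of a type from less RNA per cell.

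Most clustered histone genes passed the detection limit in this tissue. Detected means at least 1 TPM in both libraries, and 55 of the 67 genes were, where the share among all protein-coding genes was 56.2%. In the second quantification, described below, 54 were detected. Reads were split among near-identical genes, so a call on a single gene can depend on that split. The posterior SD, a score of assignment uncertainty, was over 10% of the count in either library for 31 genes. Hist1h4n and Hist1h2ao, both detected, were at 0 TPM in replicate 1 of the second quantification. In both libraries 24 genes were at 10 TPM or more and 2 at 100 TPM or more. The median over the 67 genes was 6.55 TPM. The 67 together came to 1139 TPM in replicate 1 and 1066 in replicate 2, which is 1103 ± 51.8 TPM (SD, n = 2) and 0.342% and 0.316% of the TPM of nuclear protein-coding genes. The 5 highest genes held 42.4% and 41.6% of that sum.

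**Figure D2:**
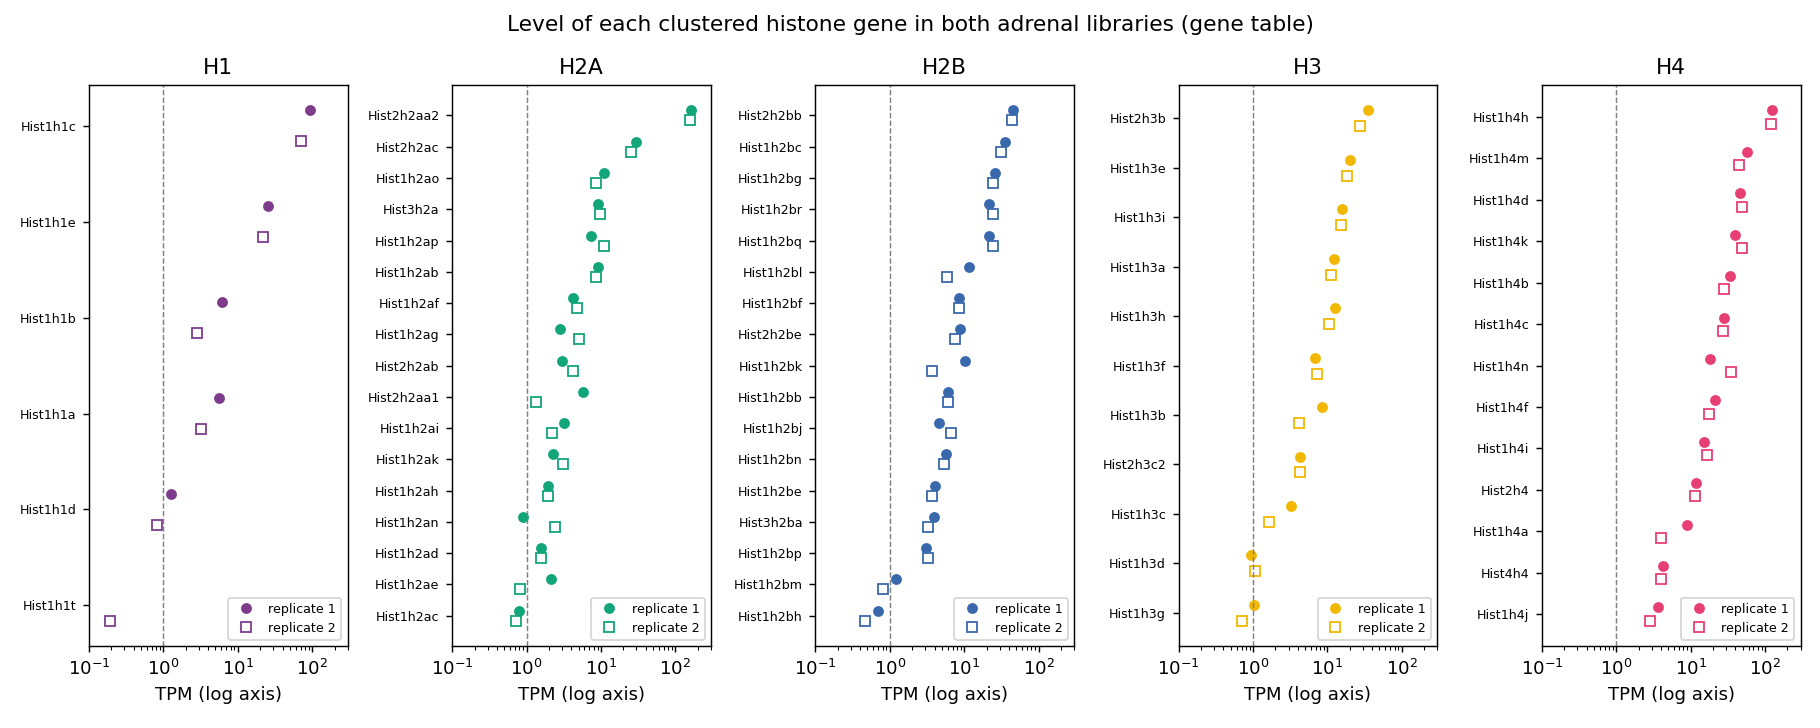
TPM on a log axis of the 64 clustered histone genes with any count, by class, in replicate 1 (filled circles) and replicate 2 (open squares), with the 1 TPM limit dashed and the 0 of Hist1h1t in replicate 1 not drawn. The 2 genes above 100 TPM are Hist2h2aa2 and Hist1h4h, all 13 H4 genes lie right of the limit, and most pairs of symbols sit close together except among genes of low count.

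Among the clustered linker genes a pair was the highest. Hist1h1c, a somatic H1 gene, was at 94.1 TPM in replicate 1 and 70.3 TPM in replicate 2, from 3936 and 2624.5 counts. It was the most counted of all 67 genes. Hist1h1e followed at 25.3 and 22.1 TPM. The others were far lower in both libraries: Hist1h1b at 6.14 and 2.80 TPM, Hist1h1a at 5.56 and 3.23, and Hist1h1d at 1.28 and 0.81. Hist1h1d passed the limit in replicate 1 only, although it had 268 and 153 counts, more than many detected genes. Its model runs 4931 bases past the stop codon. H1 genes held 27.8% and 23.5% of the histone counts but 11.6% and 9.32% of the histone TPM.

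Among H2A genes a near-identical pair stood apart. Hist2h2aa2 (chromosome 3, 96239749 to 96240276, minus strand) was listed at 161 TPM in replicate 1 and 158 in replicate 2, the highest of the 67 in the gene table. In the second quantification Hist2h2aa2 was at 135 and 98.4 TPM, below Hist1h4h in replicate 2. Its partner Hist2h2aa1 (chromosome 3, 96245497 to 96246082, plus strand) was listed at 5.66 and 1.34 TPM. The coding sequences of the pair are identical, so the split between them is uncertain and their sum, 167 and 159 TPM, is the safer value. Every 50-base window of the Hist2h2aa2 model also occurs in another gene, the noncoding Gm20634 among them, which was at 4.68 and 4.79 TPM. Hist2h2ac was next at 29.4 and 25.4 TPM, and 14 of the 18 H2A genes were detected with a class median of 3.54 TPM. The second identical H2A pair, Hist1h2ao and Hist1h2ap, summed to 18.4 and 19.7 TPM, but to 11.3 and 12.3 TPM in the second quantification. Hist1h2an and Hist1h2ae were past the limit in 1 library each, and Hist1h2ac, with 54 and 43 counts on a long model, was at 0.80 and 0.71 TPM. The other detected H2A genes had means from 1.57 TPM for Hist1h2ad to 9.46 TPM for Hist3h2a.

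H2B expression was spread over more genes. Hist2h2bb was at 45.0 and 43.3 TPM, Hist1h2bc at 34.9 and 31.0, and Hist1h2bg at 25.8 and 24.3. The order of these 3 was the same in both libraries. Hist1h2bq and Hist1h2br, identical in coding sequence, summed to 42.9 and 49.4 TPM, but to 23.2 and 27.6 TPM in the second quantification. Their separate values near 21 to 25 TPM in the gene table carried a posterior SD of 48.3% to 59.6% of the count. In all 15 of 18 were detected. Hist1h2bm was at 1.20 and 0.81 TPM and Hist1h2bh at 0.70 and 0.47. The other detected H2B genes had means from 3.15 TPM for Hist1h2bp to 8.64 TPM for Hist1h2bl.

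H3 had the lowest sum of the core classes. Hist2h3b was at 35.2 and 27.2 TPM, Hist1h3e at 20.3 and 18.6, Hist1h3i at 15.5 and 15.2, Hist1h3a at 12.1 and 11.2 and Hist1h3h at 12.8 and 10.4. The 12 H3 genes have 12 coding sequences and 3 translations, and 9 were detected. Hist1h3f, Hist1h3b, Hist2h3c2 and Hist1h3c completed the detected set at means of 7.08, 6.28, 4.28 and 2.42 TPM. Hist1h3d and Hist1h3g passed the limit in 1 library each. Hist2h3c1 had 0 counts in both libraries, but all of its 50-base windows lie in Gm20634, a noncoding transcript of the same strand that covers it. Reads from Hist2h3c1 could not be told from those of Gm20634, so its 0 is no measure of the gene.

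H4 was the highest class in TPM, and in the gene table the only one with every gene detected. All 13 genes encode 1 and the same protein from 12 coding sequences. Hist1h4h (chromosome 13, 23531050 to 23531519, plus strand) was at 124 and 122 TPM. Hist1h4m was at 56.8 and 44.9, Hist1h4d at 46.8 and 48.5, and Hist1h4k at 40.0 and 49.3 TPM, so that the order of Hist1h4m, Hist1h4d and Hist1h4k differed between the libraries. Hist1h4b was at 33.8 and 28.5 TPM and Hist1h4c at 28.4 and 27.5. Hist1h4n, Hist1h4f, Hist1h4i and Hist2h4 had means of 26.9, 19.4, 15.8 and 11.7 TPM. The lowest were Hist1h4a at 9.06 and 4.04, Hist4h4, the single gene on chromosome 6, at 4.30 and 4.03, and Hist1h4j at 3.66 and 2.82 TPM. The class median in the gene table was 26.9 TPM, as against 3.54 for H2A, 6.52 for H2B and 6.68 for H3. That H4 median is the value of Hist1h4n, whose coding sequence is identical to that of Hist1h4m. Its posterior SD was 42.1% and 29.1% of the count, and its mean in the second quantification was 1.62 TPM. The size of the gap between class medians thus depends on how reads were split.

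Summed by class, the core histones were not level with each other. H4 came to 413 ± 0.346 TPM (SD, n = 2), H2A to 253 ± 4.65, H2B to 210 ± 9.96 and H3 to 111 ± 13.5, while H1 came to 116 ± 23.4 TPM. The gaps from H4 to H2A, from H2A to H2B and from H2B to H3 were larger than the spread between the libraries, whereas the H1 and H3 sums overlapped. H4 was 3.42 times H3 in replicate 1 and 4.06 times in replicate 2, and in the second quantification 3.72 and 4.57 times. The H2A sum was 1.18 and 1.23 times the H2B sum, and 1.57 and 1.64 times in the second quantification. In counts the order changed, and H1 with 5743 and 3912 counts came next after H4 with 5973 and 5307, above every other class in both libraries. In the second quantification H1 had 5677 and 3705 counts and H4 had 4946 and 4041, so that H1 was first in replicate 1.

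**Figure D3:**
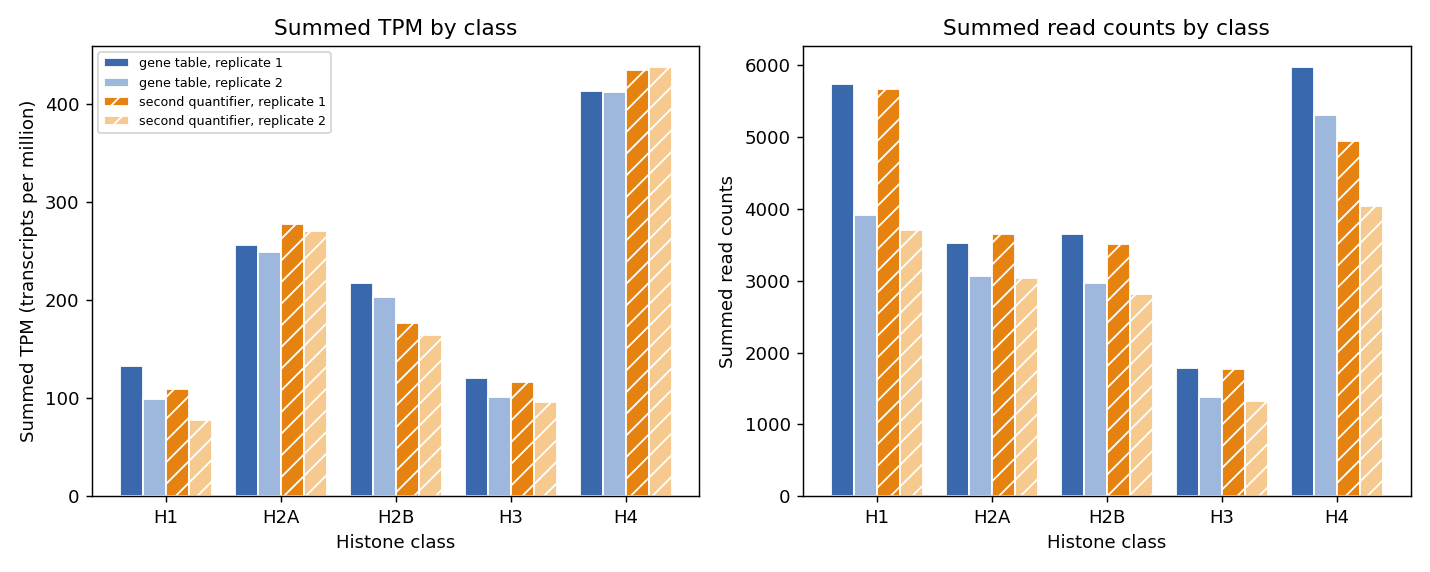
Summed TPM (left) and summed counts (right) of each histone class in replicate 1 and replicate 2, from the gene table (blue) and from the second quantifier (orange, hatched), with 1 bar a library. H4 is highest in TPM in all 4 sets of bars and H3 the lowest of the core classes, while in counts H1 and H4 stand above the other classes.

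The sums by model end show how much rests on the annotation. The 17 models that stop at the stop codon gave 195 and 200.1 TPM from 1607 and 1431 counts, that is 17.1% and 18.8% of the histone TPM from 7.77% and 8.60% of the counts. The 23 models that run over 100 bases past the stem-loop gave 28.0% and 26.5% of the TPM from 53.1% and 51.5% of the counts. Whether reads lay before or after the stem-loop cannot be read from tables of 1 value per gene.

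The testis members were at or near 0. Hist1h1t, the H1 gene of male germ cells, had 0 counts in replicate 1 and 4 in replicate 2. Hist1h2aa and Hist1h2ba, the H2A and H2B genes of testis, had 0 counts in both libraries of the gene table, where 3 counts would be 0.361 and 0.404 TPM for Hist1h2aa and 0.369 and 0.413 TPM for Hist1h2ba. The second quantification gave Hist1h2aa 1 count in each library. The germ cell genes Prm1, Prm2 and Tnp1 were also at 0 counts in the gene table. These limits cover counting error only, since reads are not independent molecules.

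H2A and H2B genes often lie head to head and share the DNA between their starts. There were 12 such pairs, with 175 to 305 bases between the annotated starts. In 11 of the 12 both genes had counts, the exception being the testis pair Hist1h2aa and Hist1h2ba. The H2B gene was the higher in both libraries in 10 of these 11 in the gene table, and in both quantifications in 7 of them. The widest gap in TPM was in the pair Hist1h2ac and Hist1h2bc, where H2B was 43.6 and 43.7 times H2A. It was 48.0 and 54.0 times H2A in the second quantification. Part of this gap lies in model length, 2482 bases for Hist1h2ac and 1156 for Hist1h2bc. Hist1h2bc had 1055 and 839 counts against 54 and 43 for Hist1h2ac. In the pair Hist1h2ae and Hist1h2bg the TPM ratio was 11.9 and 29.6, with 382 and 322 counts for Hist1h2bg against 37 and 13 for Hist1h2ae. The pair Hist2h2ac and Hist2h2be went the other way in TPM, with H2B at 0.297 times H2A in both libraries and at 0.239 and 0.253 times in the second quantification. In counts Hist2h2be was above Hist2h2ac, with 631 and 487 against 354 and 273, on a longer model.

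The bases between the starts of 1 pair of each kind are shown, on the plus strand, with CCAAT and TATAAA on either strand in capitals. CCAAT is the letters of the CCAAT box and TATAAA those of the TATA box. The first runs from the start of Hist1h2ae on the left to that of Hist1h2bg on the right (chr13:23571221-23571395), and the second from Hist2h2ac to Hist2h2be (chr3:96220881-96221118), both read from RefSeq promoter windows of GRCm38.p6.
Hist1h2ae to Hist1h2bg: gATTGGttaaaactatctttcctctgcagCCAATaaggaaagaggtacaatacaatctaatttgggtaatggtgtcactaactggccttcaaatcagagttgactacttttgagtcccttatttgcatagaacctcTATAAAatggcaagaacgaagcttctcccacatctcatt
Hist2h2ac to Hist2h2be: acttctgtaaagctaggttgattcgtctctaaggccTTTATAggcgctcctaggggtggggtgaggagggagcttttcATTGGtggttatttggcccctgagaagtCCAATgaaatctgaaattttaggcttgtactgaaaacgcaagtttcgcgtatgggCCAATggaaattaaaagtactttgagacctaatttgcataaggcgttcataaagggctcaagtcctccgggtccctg

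Each stretch held TATAAA once. In the first it reads toward Hist1h2bg, the higher gene of that pair. In the second its reverse complement reads toward Hist2h2ac, the higher gene of that pair in TPM. The pair Hist1h2ac and Hist1h2bc, not shown, was the other way. There the promoter window of Hist1h2ac covers the bases between the starts and held TATAAA once, reading toward Hist1h2ac, the lower gene. These pairs were chosen after their levels were seen, so this is a description of them only. CCAAT stood 2 times in the first and 3 times in the second. Over the RefSeq promoter windows, which run from 250 bases before a start to 50 after it, 62 of the 67 genes matched with 63 windows. CCAAT was in 85.7% of them and TATAAA in 55.6%, on either strand, as against 37.4% and 13.6% of all 32544 promoter windows. Windows of head-to-head genes can overlap, and those of Hist1h2bq and Hist1h2br have the same sequence. The 63 windows thus hold some bases more than once. Matches of the 2 motifs can share no more than an end base, and a match does not show a bound site.

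The libraries were then set against each other by counts, with totals scaled by TMM. Of the 59 histone genes whose mean count was 20 or more, 6 were lower by 2-fold or more in replicate 2, where the share over all 16380 genes was 0.989%. None was higher by 2-fold or more, where the share was 0.684%. All 6 had mean counts under 100, in which range 6 of 28 histone genes and 3.43% of 3786 genes were that much lower. At 100 counts or more it was 0 of 31 histone genes and 0.254% of all. The median log2 ratio of replicate 2 to replicate 1 was -0.12 over the histone genes and -0.01 over all genes, and 42 of the 59 (71.2%) were below 0, as against 51.3% of all 16380 genes.

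Hist2h2aa1 had the lowest ratio, with 79 counts in replicate 1 and 17 in replicate 2, a log2 ratio of -2.04 ± 0.38 (counting SE). Its posterior SD was 53.9% and 118% of the count, and its sum with Hist2h2aa2 had a log2 ratio of -0.09 ± 0.05. In the second quantification Hist2h2aa1 had the opposite sign, at 0.81. Summed as a pair, the genes showed no such fall.

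Hist1h2bk, an H2B gene, had 110.3 counts in replicate 1 and 36 in replicate 2 (log2 ratio -1.46 ± 0.28), and Hist1h2ae 37 and 13 (-1.33 ± 0.46). Hist1h4a had 114 and 45 (-1.19 ± 0.25) and Hist1h3b 125 and 55 (-1.04 ± 0.23). In the second quantification the ratio of Hist1h2bk was -1.24, but those of Hist1h4a, Hist1h2ae and Hist1h3b were -0.72, -0.78 and -0.19, all short of 2-fold. Just short of 2-fold in the gene table were Hist1h3c with 49 and 22 counts and Hist1h2bl with 92 and 42.

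The linker gene Hist1h1b, which shares no 50-base window with any other gene, had 113 counts in replicate 1 and 46 in replicate 2. Its log2 ratio was -1.15 ± 0.25, its posterior SD was 0, and the second quantification gave -1.01. It was the only one of the 6 whose posterior SD was under 10% of the count in both libraries, a limit that 32 of the 59 genes met. Hist1h1a, which is likewise free of shared windows, had 102 and 53 counts (-0.80 ± 0.24). Hist1h1d had 268 and 153 (-0.66 ± 0.15), Hist1h1c -0.44 ± 0.04 and Hist1h1e -0.22 ± 0.06. All 5 H1 genes with enough counts were thus lower in replicate 2, and the H1 sum had a log2 ratio of -0.41 ± 0.03. Between the same libraries all 4 medulla markers were higher in replicate 2, from 0.02 ± 0.02 for Th to 0.56 ± 0.03 for Pnmt, and all 3 erythroid markers were, from 0.25 for Hba-a1 to 0.32 for Alas2, while 2 of the 4 cortex markers were higher. Their part in the H1 values was not tested. The H4 sum was at -0.03 ± 0.03, the H2A sum at -0.06 ± 0.04, the H2B sum at -0.15 ± 0.04 and the H3 sum at -0.23 ± 0.05.

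At the other end were Hist1h4n at 0.92 ± 0.14, Hist1h2ag at 0.79 ± 0.33, Hist1h2ap at 0.56 ± 0.21, Hist2h2ab at 0.49 ± 0.36 and Hist1h2bj at 0.48 ± 0.28. Hist1h4n and Hist1h4m are identical in coding sequence, and their sum was at 0.10 ± 0.08. The sum of Hist1h2ao and Hist1h2ap was at 0.08 ± 0.15. These errors cover counting only, and with 2 libraries none of the ratios can be set against a spread between animals.

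**Figure D4:**
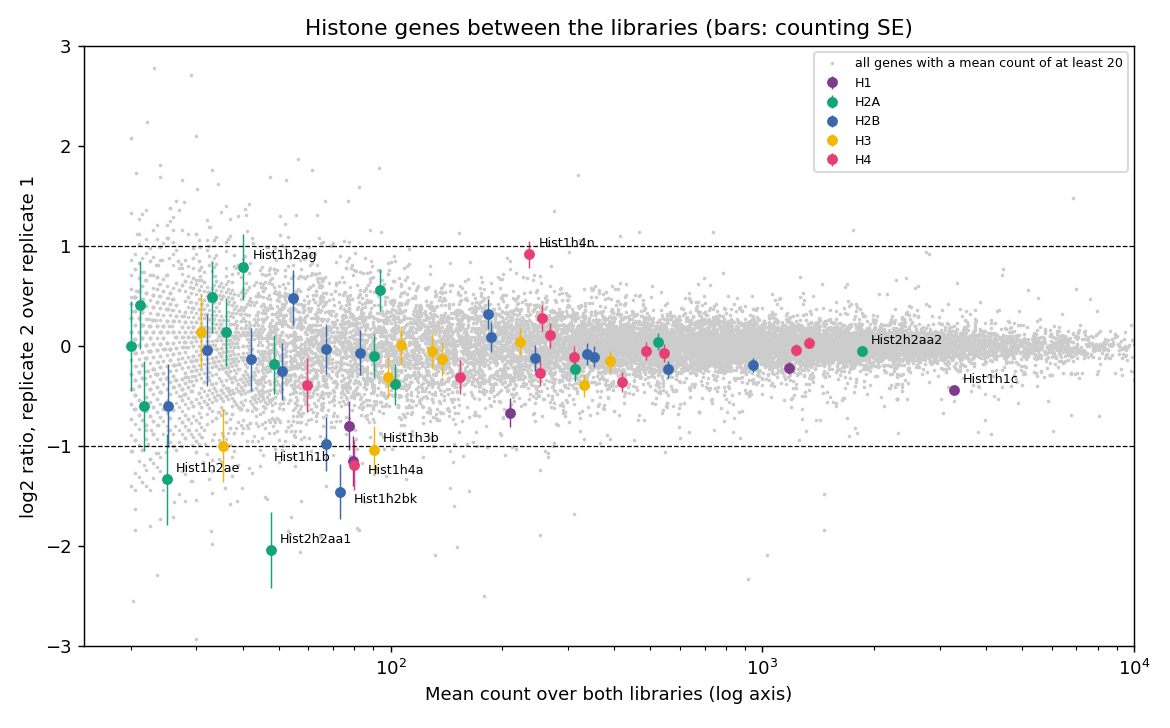
Log2 ratio of replicate 2 to replicate 1 against the mean count (log axis) for 59 histone genes, coloured by class with bars of 1 counting SE, over all genes at 20 or more in grey; 37 genes lie outside the vertical range and those above 10000 counts are not drawn. The 6 named genes below the lower dashed line, which marks 2-fold, all have fewer than 100 counts on average. At 100 counts or more no histone gene passes 2-fold, and Hist1h4n at 0.92, Hist1h1d at -0.66 and Hist1h1c at -0.44 lie furthest from 0.

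The authors' files hold a second quantification of the same reads, made directly from the reads to transcripts. It gave nearly the same sum over all 67 genes but other splits. The 67 genes summed to 1115 and 1046 TPM, which is 0.979 and 0.982 of the gene table. By class the factor was 0.82 and 0.79 for H1, 0.81 in both libraries for H2B and 0.97 and 0.94 for H3. It was 1.09 and 1.08 for H2A and 1.05 and 1.06 for H4. For single genes, 4 of 59 were at least 2-fold higher in the second quantification in both libraries, where the share over all genes was 5.57%, and 3 were at least 2-fold lower, where the share was 3.04%. The median log2 difference of the second quantification from the gene table was -0.22 over the 59 and -0.06 over all genes. Of the 7 genes concerned Hist1h4i shared 28.9% of its 50-base windows with another gene, and the others shared 67.1% to 90.1%.

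In the second quantification Hist2h2aa1 was at 35.7 and 65.1 TPM, and its sum with Hist2h2aa2 was 170.4 and 163 TPM, or 1.02 and 1.03 times the gene table. Hist1h4n was listed at 0 and 3.25 TPM and Hist1h4m at 72.1 and 88.7, where the gene table had 18.5 and 35.3 for Hist1h4n. The sum of Hist1h4m and Hist1h4n was 0.958 and 1.15 times the gene table. Hist1h2ao was listed at 0 and 5.75 TPM. Other pair sums stayed lower than in the gene table. That of Hist1h2ao and Hist1h2ap was 0.616 and 0.625 times it, and that of Hist1h2bq and Hist1h2br 0.540 and 0.559 times. With the identical sets summed, 5 differences of 2-fold or more were counted in place of 7.

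Hist1h4k, an H4 gene whose model is only the coding sequence, was at 127 and 108 TPM in the second quantification, a mean log2 difference of 1.39 from the gene table, and stood above Hist1h4h in replicate 1. Hist1h2ai, also a coding-only model, was at 19.5 and 24.9 TPM as against 3.21 and 2.19. Hist1h2ad was at 6.03 and 4.21 as against 1.56 and 1.58. Lower in the second quantification were Hist1h4i, at 5.63 and 4.33 as against 15.1 and 16.5, and Hist1h2bk, at 3.30 and 1.44 as against 10.2 and 3.72. Hist1h3b, at 16.6 and 15.1, and Hist1h2ak, at 6.12 and 4.70, were higher in both libraries but by 2-fold in 1 library only. Hist1h4d, Hist2h4, Hist1h4f, Hist1h4c, Hist1h2bq and Hist1h2br had mean log2 differences between -0.68 and -0.87. Hist1h2bp, Hist2h2ab, Hist1h4m and Hist1h2bf had mean log2 differences of 0.94, 0.67, 0.66 and 0.64.

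The reported uncertainty followed the shared sequence. Among genes with at least 20 counts in each library, 15 shared fewer than 25% of their 50-base windows with another gene and had a median posterior SD of 1.00% of the count. The 24 genes that shared 25% to under 75% had 6.66%, and the 14 that shared 75% or more had 19.6%. The median size of the log2 difference between quantifications was 0.32, 0.37 and 0.50 in those 3 sets. Genes share their libraries here, so this is a description of these tables.

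**Figure D5:**
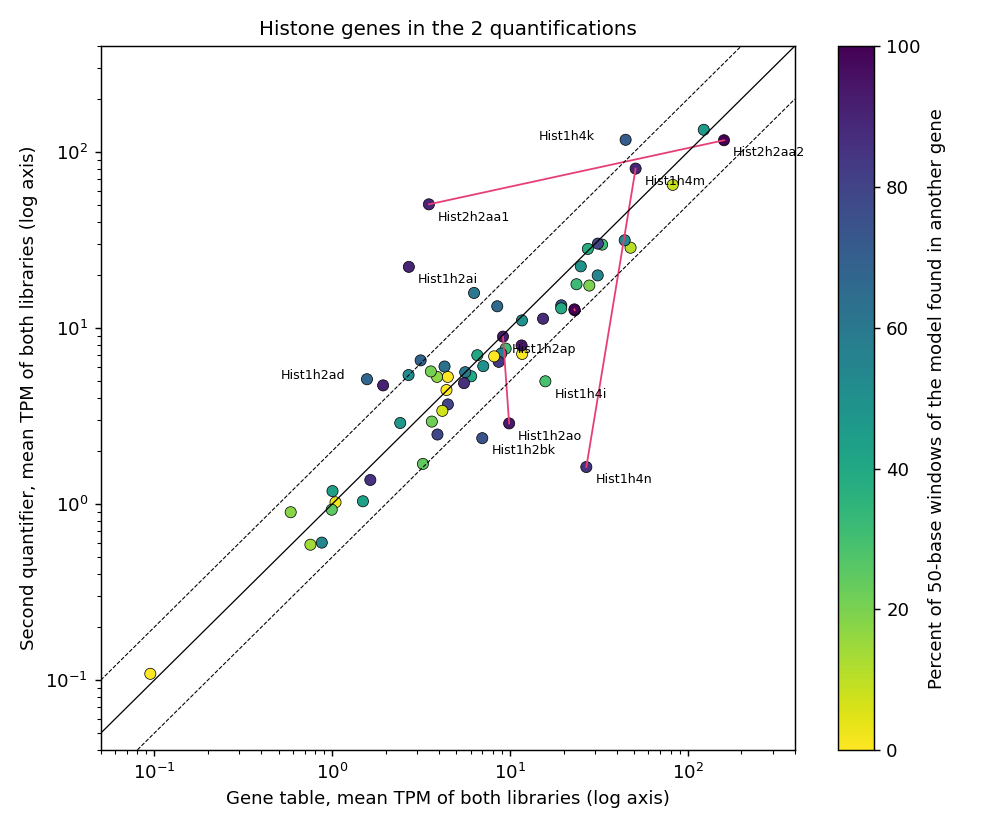
Mean TPM over both libraries in the second quantification against the gene table, both on log axes, for the 64 histone genes above 0 in the gene table, shaded by the percent of 50-base windows found in another gene. Dashed lines mark 2-fold and red lines join genes of identical coding sequence; Hist2h2aa1 and Hist1h4n, both dark, are among the genes far from the diagonal, and Hist1h4i is a light one.

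Some noncoding entries share this sequence. Hist1h2al, annotated as a processed pseudogene on chromosome 13 and so not among the 67, was at 28.7 and 27.5 TPM in the gene table and at 1.13 and 0 TPM in the second quantification, and 67.6% of its windows occur in histone gene models. Hist1h2be overlaps Hist1h1e on the same strand, and its 3 transcripts split 4.05 and 3.73 TPM. Hist3h2a lies within Trim17 on the same strand, yet was at 9.24 and 9.67 TPM where Trim17 was at 0.19 and 0.12. The library kit keeps strand per the labels, while how strand was used in counting is not given in the sources used here.

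Genes outside the clusters supply histones all through the cell cycle, and the replication-independent histones listed came to 606 and 559 TPM in sum. All 11 listed were detected, with a median of 40.9 TPM. H3f3a and H3f3b, which encode the replacement histone H3.3, were at 208 and 203 TPM and at 134 and 115 TPM, with processed copies elsewhere in the genome that can share their reads. Together they stood above the sum of all 12 clustered H3 genes, which was 121 and 102 TPM. H1f0, the linker of resting cells, was at 81.2 and 62.0 TPM, close to Hist1h1c, and H2afy, a macroH2A gene, at 52.5 and 47.3. The log2 ratio between the libraries was -0.41 ± 0.03 for H1f0, beside -0.44 ± 0.04 for Hist1h1c.

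Of 13 listed factors of histone mRNA transcription, processing and decay 12 were detected, with a median of 11.5 TPM. Sympk and Cpsf3, of the 3′ end cleavage machinery, were at 36.4 and 38.2 TPM and at 23.0 and 26.8, and Upf1, an RNA helicase of mRNA decay, was at 26.8 and 29.8. Slbp, the stem-loop binder, was at 13.7 and 15.8. Zfp473, which encodes a zinc-finger protein of histone pre-mRNA processing, was at 0.37 and 0.45 TPM.

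Histone chaperones hand histones to DNA, and 12 of 14 were detected with a median of 17.4 TPM. Atrx was at 53.5 and 55.2 TPM, Ssrp1 at 50.7 and 48.0, Nap1l4 at 45.8 and 44.5, and Nap1l1 at 38.9 and 41.0. The 2 that were not detected were Chaf1b, of the chromatin assembly factor that acts at replication, at 1.11 and 0.86 TPM, and Asf1b, a carrier of H3 and H4, at 0.37 and 0.43.

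Of 20 genes of S phase and division 12 were detected, with a median of 3.38 TPM, below the median of the 67 histone genes. Pcna led at 19.1 and 18.8 TPM, then Mcm2 at 16.8 and 13.9, Mcm7 at 13.2 and 12.2 and Rrm1 at 7.70 and 7.12. Those not detected were Top2a, Mki67, Ccne1, Cdk1, Ccnb1, Ccna2, Ccne2 and Cdc6, with mean levels from 1.52 down to 0.36 TPM. Between the libraries the 19 with enough counts had a median log2 ratio of -0.05, with 9 higher and 10 lower in replicate 2 and none past 2-fold. Beside the lower values of Hist1h1b and Hist1h1a in replicate 2, Top2a was at -0.60 ± 0.19, Mcm5 at -0.49 ± 0.13 and Mki67 at -0.21 ± 0.13, while E2f1 was at 0.29 ± 0.13. Their part in the histone values was not tested.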

How the data were processed

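Histone genes were read from the tables deposited for each of the 2 libraries. For every gene the authors deposited an estimated (expected) count, TPM and FPKM, made from alignments to the transcripts of GENCODE M21 on mm10, as the deposited library notes state. The deposited gene tables also gave the posterior SD of each count, a score of assignment uncertainty per the file headers. The share of a gene held by each of its transcripts was deposited as a percent, per the file headers. A further deposited table, made directly from the reads, gave estimated counts and TPM per transcript, summed here per gene and called the second quantification. Which aligner and quantifiers were run was not given in the sources used here.

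The authors' TPM has as its total all 81881 features of a gene table, structural RNA included. CAST reads were assigned to the mm10 reference, and the effect on these values was not analysed here.

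Counts were rounded to whole numbers, and ratios used TMM totals from edgeR 4.0.16 in R 4.3.3 with a prior count of 0.5. Errors of ratios are Poisson counting errors. Features that name no annotated gene stayed out of count totals. Quantifications were compared with a pseudocount of 0.1 TPM among genes at 1 TPM or more on average in either, and a gene was called when it differed 2-fold or more in the same direction in both libraries. DESeq2 1.42.0 size factors were an alternative, beside other limits, pseudocounts and each library left out. Tables used Python 3.11.15, numpy 2.4.6 and pandas 2.3.3, sequences Biopython 1.88 and figures matplotlib 3.10.9. The ratio step was tested on simulated counts. Sequences came from the GENCODE transcripts of the files' build and from RefSeq promoters.

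The members, gene lists and limits were chosen with earlier results of these data known. Named were detected members, the testis members, the 5 highest and 5 lowest ratios, up to 10 differences each way between quantifications at 5 TPM or more, and the 4 highest and the undetected genes of each list. Genes that fell outside this rule, such as members under 1 TPM, those just short of 2-fold, the noncoding neighbours, and Mcm5 and E2f1 of the lists, were chosen after their values were seen. A marker gene of the lists is not reported here.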

Additional observations from a re-analysis of the deposited data

How the results depend on the processing

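No call was a statistical test, and 2 libraries of 1 group limit every statement to these libraries. No paired analysis was possible because there was 1 group and no comparison between groups. The number of detected members was 51 to 62 over the other limits, FPKM and the second quantification, and 57 and 59 without replicate 1 and without replicate 2. The summed level of 1103 TPM was 1081 in the second quantification, 3291 when TPM was rescaled over nuclear protein-coding genes, 943 without Hist2h2aa2, and 905 without models ending at the stop codon, a setting chosen after seeing the data. It was 1066 to 1139 with either library left out. The 6 members past 2-fold between libraries stayed 6 in number under DESeq2 size factors and under plain totals, all of them lower in replicate 2. At a minimum of 5 counts they were 7, of which 1 was higher, and in the second quantification 8, of which 2 were higher and 2 were among the 6. They were 0 at a minimum of 100 counts, where fewer members are compared. In 2 settings added later they were 5 with identical sets summed and 1 with the posterior SD under 10% of the count. Hist2h2aa1 changed sign in the second quantification, at 0.81, and the cause was not tested. The 7 members past 2-fold between quantifications were 6 to 8 under other limits and pseudocounts, 5 with identical sets summed, and 10 to 11 when 1 library alone was asked for. Of the 58 listed genes 47 were detected, 54 at the 0.5 TPM limit, 50 in the second quantification, and 48 to 51 with either library left out. Depth limits the lowest levels: Hist1h2ah, detected at 1.94 and 1.93 TPM, rests on 17 and 15 counts.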
